A study of Mus musculus with 6 samples.

Results

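The genes described here are the beta-2-microglobulin gene B2m, the classical MHC class I heavy chain genes H2-D1 and H2-K1, and the interferon-induced genes Bst2, Ifitm2, Ifitm3, Isg15 and Ifi27. They were chosen by symbol, and all 8 are rows of the deposited table of 55367 genes. An MHC class I molecule is a heavy chain that pairs with beta-2-microglobulin, is loaded with a peptide in the endoplasmic reticulum and displays it at the cell surface to T cells and natural killer cells. Interferons act through receptors, Janus kinases and STAT and IRF transcription factors, and raise both the class I pathway and a large set of antiviral genes. In brain, class I molecules are best known from endothelial cells and microglia, and in mice they have also been found on neurons, where they have been studied in synapse remodelling.

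RNA was measured in 6 Smart-seq2 libraries, which are full-length cDNA copies of polyadenylated RNA made by PCR, without molecular identifiers. The cells were tdTomato-positive cells sorted from the hippocampal dentate gyrus of TRAP2;Ai9 mice, in which an inducible Cre under the activity gene Fos (Fos-iCreERT2) switches on a lasting red reporter (Rosa26-LSL-tdTomato). All mice went through a learned helplessness procedure, an exposure to stress without escape. The Run group (LH+ Run, 3 libraries) then had 28 days of voluntary running, and the NR group (LH+ NR, 3 libraries) did not run. The labels put the libraries in 1 batch and give no age, sex or strain. The sources used here do not give the number of cells or animals behind a library, so p-values measure only the spread between libraries, which may be technical. The H2 genes are highly polymorphic between mouse strains, and with the strain not given, the effect of allele differences on their values was not tested.

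The deposited unit is FPKM, which corrects fragment numbers for a transcript's length and a library's total, so that levels of different genes can be set side by side. It holds no read totals, and depth is unknown. The summed FPKM of a library was 475744 to 492021 in Run and 473786 to 487032 in NR, and 5534 to 6291 genes in Run and 5426 to 7355 in NR reached FPKM 1. A value of 0 can be a failed estimate, since 3 of 12 genes used by every cell were listed at 0 in at least 1 library. Of all 55367 genes, 17361 were above 0 in at least 1 library. The labels call the cells neurons, but 0 of 10 granule neuron markers and 4 of 12 general neuronal markers reached FPKM 1 in all 6 libraries, against 8 of 10 astrocyte and 5 of 10 endothelial markers. Counted in each library, 12, 11 and 8 of the general neuronal markers reached FPKM 1 in Run, against 5, 10 and 9 in NR. For granule neuron markers these counts were 5, 4 and 2 in Run, against 0, 6 and 2 in NR. For astrocyte markers they were 9, 10 and 10 in Run and in NR, and for endothelial markers 8, 7 and 9 in Run, against 8, 10 and 7 in NR. Where markers of several cell types are present, fewer cells of a type and less RNA per cell cannot be told apart.

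Transcripts of the class I complex were present in every library, with the light chain far above both heavy chains. B2m (ENSMUSG00000060802.8, chromosome 2, 122147686 to 122153083, plus strand, GRCm38) encodes beta-2-microglobulin, the chain shared by all class I molecules. Its level was 383, 1156 and 843 FPKM in Run replicates 1, 2 and 3, against 1018, 1779 and 825 FPKM in NR replicates 1, 2 and 3. Run replicate 1 was the lowest and NR replicate 2 the highest library, and the groups overlapped. B2m averaged 794 ± 389 FPKM in Run and 1208 ± 505 FPKM in NR (SD, n = 3 each). By its mean over the 6 libraries, 1001 FPKM, it ranked 45 among all genes of the table.

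H2-D1 (ENSMUSG00000073411.11, chromosome 17, 35262730 to 35267499, plus strand) encodes a classical heavy chain that presents peptides to CD8 T cells. Its level was 139.6, 160.0 and 187 FPKM in Run, against 119, 332 and 68.3 FPKM in NR. The Run libraries lay within the range of the NR libraries, which held both the lowest and the highest value. The means were 162 ± 23.7 FPKM in Run and 173 ± 139.7 FPKM in NR (SD, n = 3 each).

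H2-K1 (ENSMUSG00000061232.16, chromosome 17, 33996017 to 34000347, minus strand) encodes the other classical heavy chain with the same task. Its level was 54.3, 275 and 132 FPKM in Run, against 63.1, 266 and 129 FPKM in NR. Both groups held 1 low, 1 middle and 1 high library, with nearly the same values. In each group replicate 1 was the lowest and replicate 2 the highest. The means were 154 ± 112 FPKM in Run and 153 ± 103 FPKM in NR (SD, n = 3 each). B2m exceeded each heavy chain in all 6 libraries, and H2-D1 exceeded H2-K1 in 4 of 6.

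Taken within each library, the B2m level divided by the sum of both heavy chain levels was 1.98, 2.66 and 2.65 in Run, against 5.59, 2.98 and 4.18 in NR. The Run ratios all lay below the NR ratios, with means of 2.43 ± 0.391 in Run and 4.25 ± 1.31 in NR (SD, n = 3 each). This ratio was formed after the values were seen and was not tested. Among the single genes tested, the groups did not overlap for 8.95%.

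The promoters of the class I genes are shown because interferons are known to act on this pathway through the interferon-stimulated response element (ISRE). RefSeq promoter windows of GRCm38.p6, running from 250 bases before to 50 after an annotated start site, were found for 7 of the 8 genes, all except Ifi27. They were searched on both strands for the ISRE core, GAAA and GAAA with any 2 bases between them, which 3.44% of all 32851 windows hold. A looser core, GAANNGAAA, which 7.52% of windows hold, was added after the sequences were seen. It is 1 base shorter than the first and is a separate pattern. The lines below run 5′ to 3′ on the gene's strand with the matches in capitals, and in H2-D1 and H2-K1 the match is read on the opposite strand.
B2m, chr2:122147528-122147577, plus strand: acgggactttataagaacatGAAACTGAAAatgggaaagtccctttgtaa
H2-D1, chr17:35262934-35262962, plus strand: atctcctcagTTTCACTTCtgcacctaac
H2-K1, chr17:34000419-34000447, minus strand: atctccacagTTTCACTTCtgcacctaac

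The B2m match begins 139 bases before the start site. H2-D1 and H2-K1 hold no ISRE core and 1 match each of the looser core, 150 bases before the start site in H2-D1 and 90 or 104 bases before it in H2-K1, depending on which of its annotated start sites is used. GENCODE M21 starts H2-D1 further upstream than RefSeq, so that there the H2-D1 match lies in the first exon. The longest run of bases shared by the H2-D1 and H2-K1 windows is 47 bases long. A CCAAT box, found in 37.4% of windows on either strand, is present in all the class I windows. A match is a description of letters and shows no binding.

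Of the 5 interferon-induced genes, Ifitm2 and Ifitm3 were at FPKM 1 or more in all libraries and 3 had gaps. Ifitm3 (ENSMUSG00000025492.6, chromosome 7, 141009586 to 141010770, minus strand) encodes a membrane protein that restricts the entry of viruses from endosomes. It had 417, 408 and 676 FPKM in Run, against 416, 882 and 341 FPKM in NR. The groups overlapped, with means of 500.2 ± 152 FPKM in Run and 547 ± 293 FPKM in NR (SD, n = 3 each).

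Ifitm2 (ENSMUSG00000060591.9, chromosome 7, 140954837 to 140955987, minus strand) encodes a close relative in the same gene cluster. It had 272, 183 and 193 FPKM in Run, against 138, 323 and 194 FPKM in NR. Again the NR group held both the lowest and the highest library, and the means were 216 ± 48.8 FPKM in Run and 218 ± 94.97 FPKM in NR (SD, n = 3 each). Its highest library was 2.34 times its lowest, the smallest such ratio of the 5 genes at FPKM 1 or more in all libraries, where Ifitm3 had 2.59, B2m 4.64, H2-D1 4.85 and H2-K1 5.06. Ifitm3 exceeded Ifitm2 in all 6 libraries.

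Bst2 (ENSMUSG00000046718.8, chromosome 8, 71534255 to 71537456, minus strand) encodes tetherin, which holds budding enveloped viruses at the cell surface. Its level was 0.0803, 43.0 and 18.7 FPKM in Run, against 61.1, 36.3 and 49.4 FPKM in NR. Run replicate 1 was near 0, Run replicate 2 lay inside the NR range and Run replicate 3 below it.

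Isg15 (ENSMUSG00000035692.6, chromosome 4, 156199424 to 156200818, minus strand) encodes a ubiquitin-like protein that is attached to other proteins after interferon exposure. It had 31.6 and 28.7 FPKM in Run replicates 1 and 2 and was listed at 0 in Run replicate 3, against 0, 18.0 and 0.0587 FPKM in NR. Of the 6 libraries, 3 therefore reached FPKM 1, from both groups.

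Ifi27 (ENSMUSG00000064215.13, chromosome 12, 103434211 to 103440239, plus strand) encodes a small interferon-induced membrane protein. It had 0.157, 84.8 and 213 FPKM in Run, against 61.9, 0.621 and 142 FPKM in NR. Each group had 1 library below FPKM 1 and 2 well above it.

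**Figure D1:**
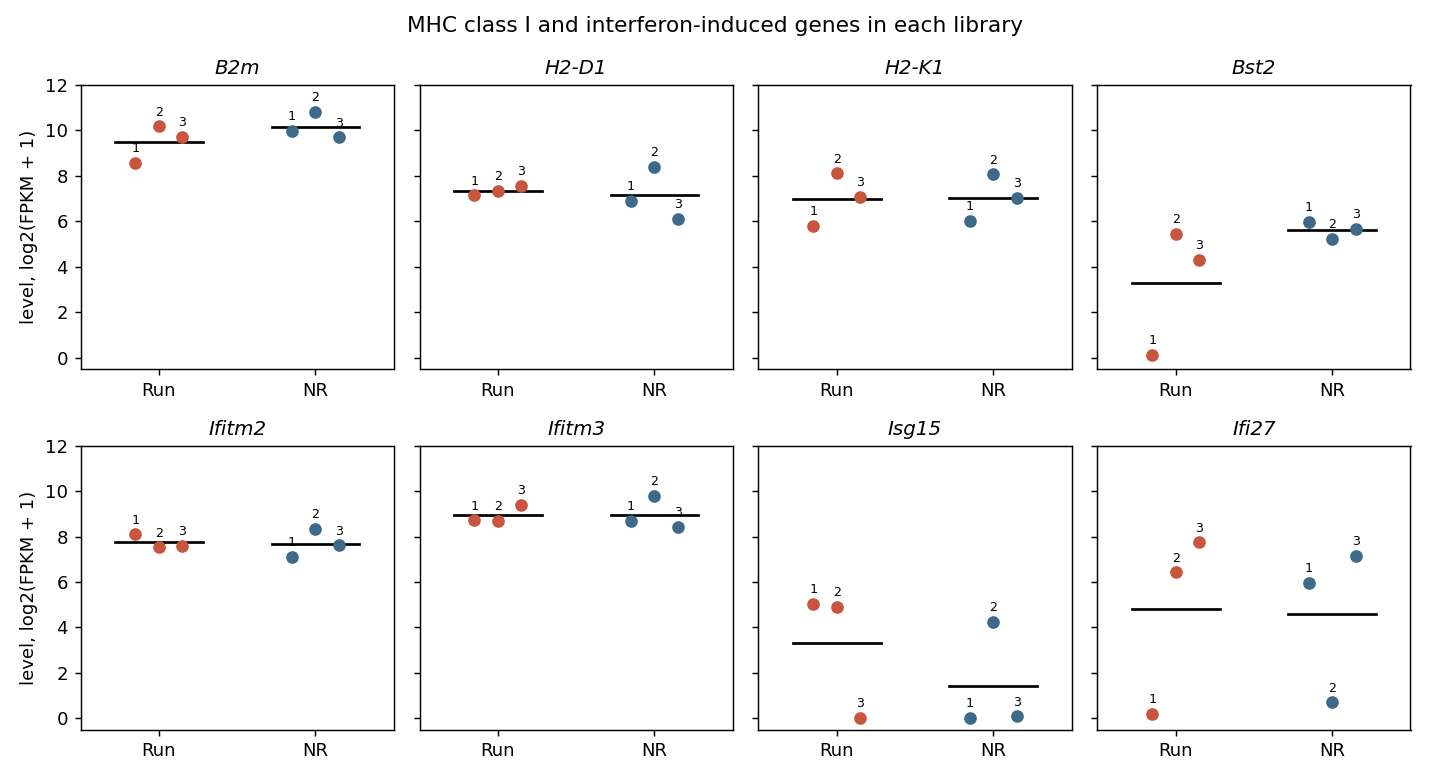
Level of each gene, as log2(FPKM + 1), in the Run and NR libraries. Points are libraries marked with their replicate number and bars are group means of the plotted values (n = 3 each). B2m, H2-D1, H2-K1, Ifitm2 and Ifitm3 were at FPKM 1 or more in all 6 libraries, whereas Bst2, Isg15 and Ifi27 had libraries at or near 0, and the groups overlapped for all 8 genes.

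Ordered by mean level over the 6 libraries, the genes ran from B2m (1001 FPKM) through Ifitm3 (523), Ifitm2 (217), H2-D1 (168), H2-K1 (153), Ifi27 (83.7) and Bst2 (34.8) to Isg15 (13.1). The ranges of neighbours overlapped at every step except between Ifitm3 and Ifitm2. In Run replicate 1 the first place was held by Ifitm3 and not by B2m.

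Windows upstream of the interferon-induced genes are shown for the same reason as those of the class I genes, and for Isg15 because its matches overlap. The ISRE core was found in Isg15, Bst2, Ifitm2 and Ifitm3 besides B2m.
Isg15, chr4:156200855-156200916, minus strand: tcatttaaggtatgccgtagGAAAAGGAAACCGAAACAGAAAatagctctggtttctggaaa
Bst2, chr8:71537567-71537622, minus strand: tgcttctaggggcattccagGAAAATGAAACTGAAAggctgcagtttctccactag
Ifitm2, chr7:140955978-140956027, minus strand: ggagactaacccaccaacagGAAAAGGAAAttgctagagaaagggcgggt

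The Isg15 stretch holds 3 overlapping matches, the first beginning 78 bases before the start site. Isg15 also has the looser core, on the opposite strand, 128 bases before the start site. The Bst2 stretch holds 2, the first of them 130 bases before the start site, and Ifitm2 has 1, beginning 46 bases before it. In Ifitm3 both matches begin after the annotated start site, at bases 3 and 20 of the transcript. The gamma-activated site core TTCNNNGAA, bound by STAT dimers and held by 8.30% of windows, was found in Bst2, where it overlaps the ISRE core, and in Ifitm3. The letters of the TATA box, TATAAA, held by 13.6% of windows on either strand, were found in B2m, H2-D1, H2-K1 and Ifitm2. In H2-D1 they begin 26 bases before the start site, on the gene's strand. In H2-K1 they begin after it, at base 36 or 22 of the transcript, depending on the start site. In B2m and Ifitm2 they lie on the opposite strand, 152 and 175 bases before the start site.

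**Figure D2:**
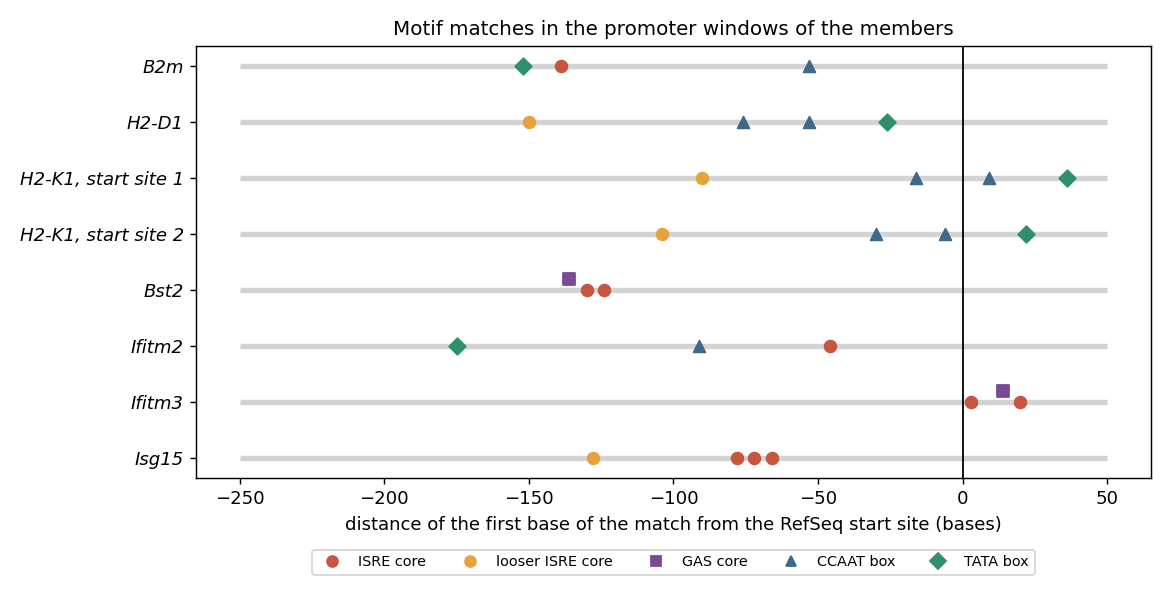
Positions of motif matches in the RefSeq promoter windows of 7 genes, with H2-K1 shown for both annotated start sites. The x axis gives the distance in bases of the first base of a match from the start site, and each marker is 1 match. The ISRE core lies before the start site in B2m, Bst2, Ifitm2 and Isg15 and after it in Ifitm3, and the looser core is found in H2-D1, H2-K1 and Isg15.

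Running was compared with no running for each gene. By limma on the log2(FPKM + 1) scale, 0 of the 8 genes passed an adjusted p of 0.05, and over all 6155 tested genes 0 did (0%). At an unadjusted p under 0.05 there were 0 of the 8 genes, against 304 of all tested genes (4.94%). When a log2 difference of 1 or more was also required, 0 of the 8 were higher in Run, against 2.42% of tested genes, and 0 were lower, against 2.47%. The groups did not overlap for 0 of the 8. Over all tested genes, 4.76% had every Run value above the NR values and 4.19% every Run value below them. All 8 met the filter of FPKM 1 or more in at least 3 libraries, Isg15 with the 3 libraries that this requires. Differences were positive for 4 genes and negative for 4, with a median of 0.01, where 48.9% of all tested genes were positive and their median was -0.03. Of the 8 genes, every adjusted p was 0.978 or higher.

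Among the genes at FPKM 1 or more in all libraries, the differences of log2(FPKM + 1), Run minus NR, were smaller than their standard errors for Ifitm2, Ifitm3, H2-D1 and H2-K1, but not for B2m. Ifitm3 differed by -0.04 ± 0.45 (SE, 95% interval -1.11 to 1.03) and Ifitm2 by 0.05 ± 0.48 (-1.08 to 1.19). For H2-K1 the difference was -0.04 ± 0.81 (-1.97 to 1.88) and for H2-D1 0.21 ± 0.66 (-1.37 to 1.78). Leaving out 1 library turned the direction of each of these 4 genes, with ranges of -0.32 to 0.37 for Ifitm3, -0.23 to 0.38 for Ifitm2, -0.61 to 0.55 for H2-K1 and -0.30 to 0.83 for H2-D1. B2m differed by -0.67 ± 0.48 (-1.81 to 0.48). Its difference stayed negative, between -1.01 without Run replicate 2 and -0.21 without Run replicate 1. The intervals of Ifitm2 and Ifitm3 reach past a doubling in both directions, so these data do not show that the genes stayed the same.

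For the genes with gaps the errors were larger. Bst2 differed by -2.32 ± 1.51 (SE, 95% interval -5.89 to 1.25). Without Run replicate 1, where it was near 0, the difference was -0.73. Isg15 differed by 1.86 ± 1.91 (-2.66 to 6.39), or by 3.52 without Run replicate 3, 1.14 without NR replicate 1 and 1.18 without NR replicate 3. The difference of Ifi27 was 0.18 ± 2.45 (-5.62 to 5.98) and ranged from -1.78 to 2.47 when libraries were left out singly. Of these genes, Ifi27 alone changed direction when a library was left out. Isg15 could not be tested without Run replicate 1, Run replicate 2 or NR replicate 2, the 3 libraries where it exceeded FPKM 1.

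The spread between libraries of a group differed between the genes and was widest for the 3 with gaps. The residual SD of log2(FPKM + 1) was 0.49 for Ifitm2, 0.59 for Ifitm3, 0.83 for H2-D1 and 1.10 for H2-K1, where the median of the 648 genes with means of 100 to 1000 FPKM was 0.80. It was 0.71 for B2m, against a median of 0.39 for the 45 genes with means over 1000 FPKM, B2m among them. Bst2 (2.01), Isg15 (2.65) and Ifi27 (3.74) belong to the 3635 genes with means of 10 to 100 FPKM, whose median was 2.45. It was 1.41 for the 1827 genes with means under 10 FPKM.

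**Figure D3:**
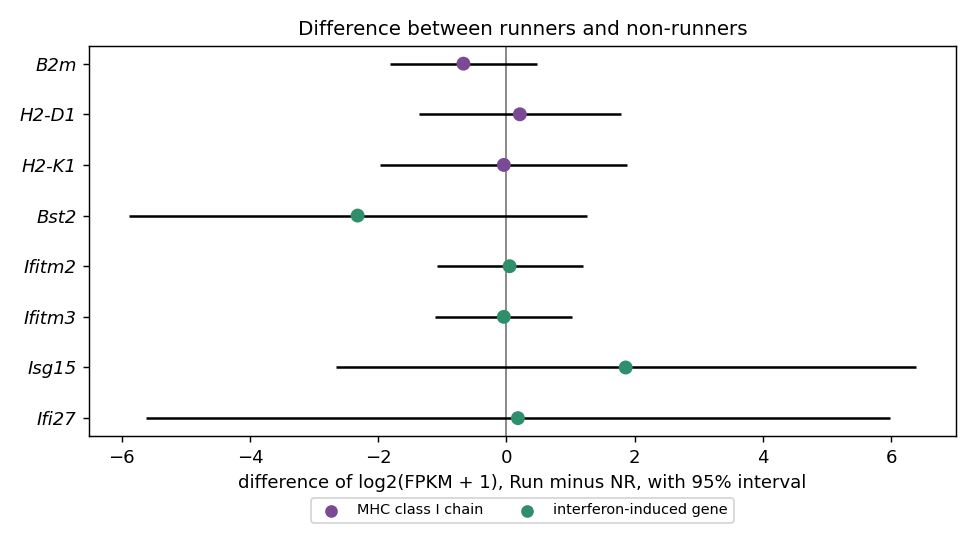
Difference of log2(FPKM + 1), Run minus NR, for each gene, as the limma estimate (point) with its 95% interval (line, n = 3 libraries each). Every interval includes 0, and those of Bst2, Isg15 and Ifi27 are several times wider than those of Ifitm2 and Ifitm3.

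Summed levels of the genes were set beside those of cell type markers in each library. The summed FPKM of the 3 class I genes was 577, 1591 and 1162 in Run, against 1201, 2377 and 1022 in NR. That of the 5 interferon-induced genes was 721, 747 and 1101 in Run, against 678, 1260.3 and 726 in NR. NR replicate 2 was the highest for both groups of genes, and Run replicate 1 was the lowest for class I. The 10 endothelial markers, all of them tested and 5 of them at FPKM 1 or more in all libraries, summed to 1106, 1267 and 1618 FPKM in Run, against 1306, 2366 and 1060.0 in NR, and NR replicate 2 was again the highest. Ly6c1 was the highest of these markers in every library, with 549, 737 and 1010.5 FPKM in Run, against 671, 1228 and 379 in NR. Ly6c1, Cldn5, Flt1 and Kdr were highest in NR replicate 2. Pecam1, Cdh5, Tek, Esam, Egfl7 and Slco1a4 were highest in other libraries. NR replicate 2 also had the most genes at FPKM 1 or more, 7355. The endothelial sum was lowest in NR replicate 3, whereas that of class I was lowest in Run replicate 1. The 10 astrocyte markers summed to 2819.9, 5301 and 2720.4 FPKM in Run, against 4709, 2547 and 3898 in NR, lowest in NR replicate 2. Sums of oligodendrocyte and mural markers were highest in NR replicate 3 and NR replicate 1.

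Markers of microglia, another cell type known for class I, were uneven. The 10 microglial markers summed to 179, 927 and 334 FPKM in Run, against 55.0, 463 and 572 in NR, and 1 of them, C1qc, reached FPKM 1 in all libraries. P2ry12 and Tmem119, which separate microglia from other macrophages, exceeded FPKM 1 in Run replicate 2 alone. Of 12 blood and immune markers, 7 were listed at 0 in every library, among them Cd3e of T cells. Lyz2 reached FPKM 1 in every library, and Ptprc did so in Run replicate 2 and NR replicate 2. Nkg7 (39.95) and Mrc1 (3.80) exceeded FPKM 1 in NR replicate 2 alone, and Ccl5 in Run replicate 1 alone (49.6). Of 7 listed genes of receptors for class I molecules and of related or associated chains, 1 exceeded FPKM 1, Cd8a in NR replicate 2 (21.8). The 12 neuronal markers summed to 1231, 703 and 664 FPKM in Run, against 382, 695 and 979 in NR. The part of these cell types in the levels of the 8 genes was not tested.

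**Figure D4:**
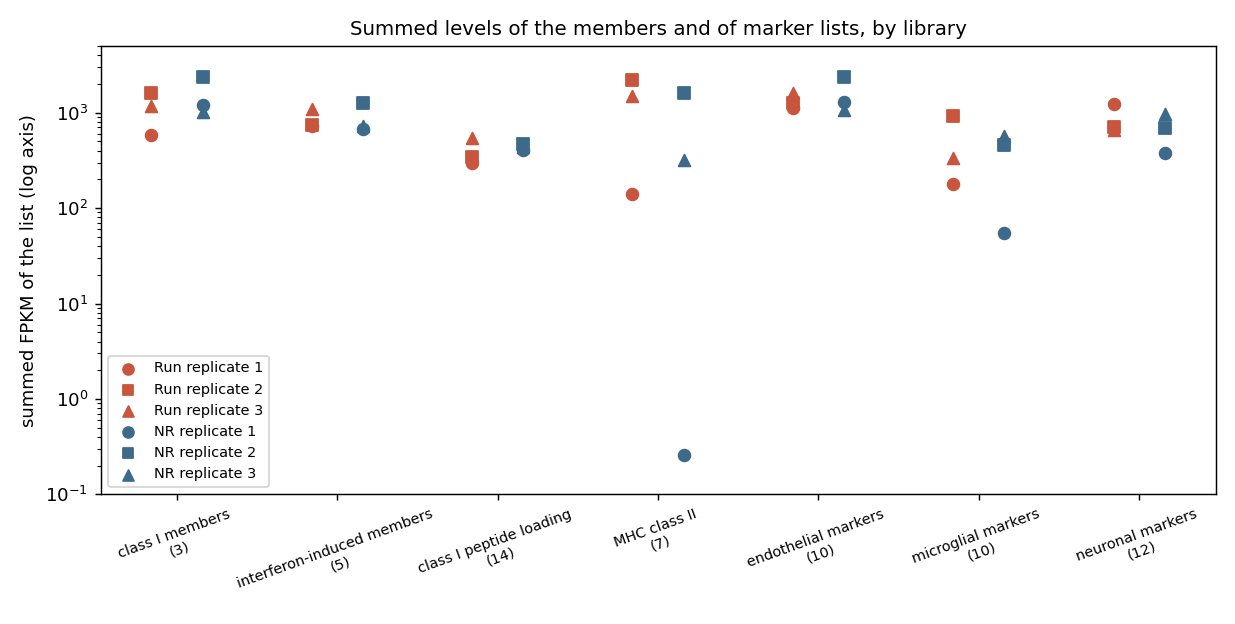
Summed FPKM of gene lists in each library, on a log axis, with Run left of NR in each column and the replicate given by the marker shape. The number of listed genes stands in brackets. The class I genes lay between 577 and 2377 FPKM, whereas the MHC class II list spanned 0.262 to 2203 FPKM.

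Of 14 genes that load peptides onto class I molecules, 9 were tested. None passed, and 3 had a positive and 6 a negative difference, with a median of -0.70, against -0.03 over all tested genes. The groups did not overlap for 2 of the 9, against 8.95% of all tested genes. An unadjusted limma p under 0.05 was found for 3 of the 9, against 4.94%. Canx, the lectin chaperone calnexin that holds newly made heavy chains and many other glycoproteins, had 103, 66.0 and 202 FPKM in Run, against 34.5, 36.9 and 5.42 in NR. All its Run values lay above its NR values, a difference of 2.45 ± 0.98 (SE, limma adjusted p = 0.965). The related chaperone gene Calr had 32.0, 40.0 and 97.2 FPKM in Run, against 18.5, 37.5 and 26.7 in NR, and overlapped.

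Of the other tested loading genes, Tapbp, Psmb9, Pdia3, Psmb8, Psme1 and Psme2 had lower mean levels in Run, and none passed the test. Values of Tapbp, Psmb9 and Pdia3 follow. Tapbp encodes tapasin, which bridges class I molecules to the peptide transporter. It was listed at 0 in Run replicate 1 and had 32.2 and 0.856 FPKM in Run replicates 2 and 3, against 53.0, 30.3 and 97.9 in NR (-3.80 ± 1.58, limma adjusted p = 0.978). Psmb9, an interferon-induced subunit of the immunoproteasome, had 0.0469, 8.68 and 0 FPKM in Run, against 22.5, 18.9 and 25.3 in NR, with no overlap (-3.41 ± 1.38, limma adjusted p = 0.965). Pdia3, the oxidoreductase of the loading complex, had 24.3, 76.7 and 32.97 FPKM in Run, against 79.7, 68.3 and 96.6 in NR. Of the transporter genes, Tap1 exceeded FPKM 1 in Run replicate 2 alone (5.13) and Tap2 in NR replicate 1 alone (38.2).

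Other class I heavy chains were sparse. Of 15 listed, 2 were tested, H2-T23, which encodes the mouse ligand Qa-1 of inhibitory natural killer receptors, and Fcgrt, the receptor that recycles antibodies. H2-T23 had 0.0315, 0.346 and 54.3 FPKM in Run, against 1.20, 74.0 and 0.0511 in NR. Fcgrt was listed at 0 in Run replicate 1 and had 157 and 120.4 FPKM in Run replicates 2 and 3, against 51.9, 68.7 and 8.56 in NR. Neither passed.

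For the interferons themselves, 9 of 9 ligand genes, Ifnb1 and Ifng among them, were listed at 0 in every library. Of 22 genes of receptors and signalling, 8 were tested, none passed, and 6 of the 8 differences were negative, with a median of -1.29. Ifnar2, a chain of the type I interferon receptor, had 46.6, 0 and 0 FPKM in Run, against 67.4, 101 and 14.6 in NR (-3.72 ± 1.84, limma adjusted p = 0.978). Irf1, the transcription factor that acts on class I genes downstream of interferon gamma, had 0.0736, 1.04 and 0 FPKM in Run, against 54.8, 0 and 56.3 in NR (-3.50 ± 1.72, limma adjusted p = 0.978). Irf2, which competes with Irf1 for its sites, had 0.0232, 9.96 and 0 FPKM in Run, against 4.92, 18.5 and 0 in NR.

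Among 59 other interferon-induced genes, 11 were tested and none passed, with 6 positive and 5 negative differences and a median of 0.01. Of the 48 not tested, 21 exceeded FPKM 1 in 1 library alone. The number of the 59 at FPKM 1 or more was 6, 17 and 12 in Run, against 13, 25 and 11 in NR, with NR replicate 2 the highest. Ly6e, a membrane protein gene and the only one of the list at FPKM 1 or more in every library, had 154, 87.5 and 141 FPKM in Run, against 334, 329 and 11.9 in NR. Ifi27l2a, a relative of Ifi27, had 2.41, 34.8 and 0 FPKM in Run, against 29.5, 169 and 51.9 in NR (-3.71 ± 1.57, limma adjusted p = 0.978). Ifit3b, of a family that binds viral RNA, had 0.0101, 68.5 and 0 FPKM in Run, against 60.6, 40.2 and 52.2 in NR. Lgals9, which encodes galectin 9, had 71.5, 94.7 and 128 FPKM in Run, against 115, 49.6 and 0.0312 in NR. Of 13 nucleic acid sensors and adaptors 1 was tested, Mavs, the mitochondrial adaptor of RNA sensing, with 68.9, 1.69 and 22.96 FPKM in Run, against 0, 30.9 and 38.97 in NR.

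Sequence shared with other genes limits some of these values. Of the distinct 50-base runs of the longest coding transcript in GENCODE M21, 48.5% of those of Ifitm2 also occur in transcripts of other genes on the same strand, 36.1% in Gm45717 alone. For H2-D1 the share was 14.3%, for Ifitm3 10.02%, for H2-K1 8.79% and for Isg15 3.96%, while B2m, Bst2 and Ifi27 shared none. H2-K1 shared 6.94% of its runs with H2-D1. Reads from such stretches may have been divided between genes, so that the levels of Ifitm2 and the heavy chains are uncertain to that extent.

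Patterns most like those of the leading gene of each role were found over the 6 libraries on the log2(FPKM + 1) scale. For B2m these were Dbn1 (Pearson r = 0.970, n = 6), Eng (r = 0.966) and Dmd (r = 0.958), and 15 of the 6154 other tested genes had r above 0.9. For Ifitm3 they were H2-T23 (r = 0.965), Icam2 (r = 0.961) and Tjp1 (r = 0.955), and 19 of 6154 were above 0.9. All these values come from the same 6 libraries, and NR replicate 2 was the highest library for all 6 matched genes. The matched genes were picked as the highest of 6154 correlations, so a high r alone does not show that they vary together. This was not tested.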

How the data were processed

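FPKM values were deposited by the authors in 1 table with a column for each of 6 libraries. The submitters' processing notes list STAR 2.7.5c, StringTie 2.1.7, Trimmomatic 0.39 and the build mm10, without saying what each was used for or which annotation was taken. The FPKM values could not be turned back into reads: 14.0% to 19.4% of low values lay within 5% of a whole multiple of the best step, where an even spread gives 10%. Depth is therefore unknown. At least 99.99% of values differed between any pair of libraries.

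Genes entered the test where FPKM reached 1 in 3 or more libraries, which left 6155. Values were tested 2-sided as log2(FPKM + 1) by limma 3.58.1 (R 4.3.3, trended prior variance), and p was adjusted by Benjamini and Hochberg's method across these genes, at a threshold of 0.05. This scale understates changes of low genes. The script was tested on simulated, normally distributed log2 values without gaps. Their spread was smaller than the median of the genes with means of 10 to 100 FPKM. The simulation therefore does not show how the test performs on genes with gaps. Coordinates came from GENCODE M21, which holds 96.2% of the symbols, and promoters from RefSeq on GRCm38.p6. Other steps used Python 3.11.15 with pandas 2.3.3.

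The 8 genes, the related lists, the tests and the alternatives were chosen with earlier results of these data known. All 8 genes are named. Of each related list, genes at FPKM 1 or more in all libraries and up to 3 tested genes with the smallest p are named, and other named genes were chosen after their values were seen. Alternatives were 2 other pseudocounts, 2 other filters, 3 rescalings, 2 other variance settings, the replicate number as a block, and leaving out each library.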

Additional observations from a re-analysis of the deposited data

How the results depend on the processing

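Under every alternative that gave a value, 0 of the 8 genes and 0 of all tested genes passed the adjusted threshold. Of 122 differences of single genes under alternatives, 110 kept their direction and 12 reversed, and the lowest adjusted p by limma was 0.712. The 2 other variance settings, the 2 other filters and the replicate block cannot change the difference of a gene that they keep. Their values were therefore bound to keep their direction. With a pseudocount of 0.1, Ifi27 became -0.15. Leaving out single libraries, the log2 difference ranged from -1.01 to -0.21 for B2m, -0.30 to 0.83 for H2-D1, -0.61 to 0.55 for H2-K1, -3.41 to -0.73 for Bst2, -0.23 to 0.38 for Ifitm2, -0.32 to 0.37 for Ifitm3, 1.14 to 3.52 for Isg15 and -1.78 to 2.47 for Ifi27. Reversals came without Run replicate 1 (H2-K1 0.55, Ifitm2 -0.13, Ifitm3 0.07), without Run replicate 2 (Ifitm3 0.09, Ifi27 -0.64), without Run replicate 3 (Ifi27 -1.29), without NR replicate 1 (Ifitm2 -0.23), without NR replicate 2 (H2-K1 0.47, Ifitm3 0.37, Ifi27 -1.78) and without NR replicate 3 (H2-D1 -0.30). The cause was not tested.

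Over all genes, the looser rule (unadjusted limma p under 0.05 and a log2 difference of 1 or more) gave 149 higher and 152 lower in Run, and ranged from 86 to 241 and from 73 to 231 when single libraries were left out. Genes whose groups did not overlap numbered 293 with Run above and 258 with Run below, and ranged from 450 to 656 and from 424 to 522, where fewer samples make overlap rarer. With only the genes at 0 in every library left out (17361 genes kept), 486 lay above and 402 below. When every library had to reach FPKM 1 (1751 genes) the counts were 34 higher and 26 lower, and 94 above and 67 below. There Bst2, Isg15 and Ifi27 had no value, and Isg15 had none without Run replicate 1, Run replicate 2 or NR replicate 2.

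The labels do not say whether a replicate number marks a shared animal, litter or day. Over all tested genes, correlations of same-numbered deviations were 0.0211, 0.00416 and 0.0179, and each Run library correlated best with its own number. Correlations over all tested genes cannot decide whether the libraries were paired, since a few genes could vary together without moving them. Of the 8 genes, H2-K1 alone had its libraries in the same order of replicate numbers in both groups. Cd74, H2-Eb1 and Lyz2, chosen after their values were seen, had this order too, and H2-Aa did not. Whether this order marks a pairing was not tested. With the replicate number as a block, 0 genes passed, and 116 were higher and 132 lower by the looser rule. The B2m difference was again -0.67, since a block cannot change a difference in this balanced design. Its unadjusted limma p was 0.124 with the block, against 0.212 without it. Depth is unknown, so no counting error can be given.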

Other observations

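MHC class II genes, which antigen-presenting cells use to show peptides to helper T cells, were among the most uneven genes of the related lists. Cd74, the invariant chain that guides class II molecules, had 20.2, 894 and 368 FPKM in Run, against 0.0589, 538 and 121 in NR. H2-Aa had 91.1, 374 and 418 FPKM in Run, against 0.0316, 360.4 and 110.0 in NR, and H2-Eb1 had 27.6, 262 and 163 FPKM in Run, against 0.0525, 281 and 0.976 in NR. All of these class II genes were near 0 in NR replicate 1, and their values in Run replicate 1 were the lowest of the Run group. In NR replicate 1, B2m, H2-D1 and H2-K1 had 1018, 119 and 63.1 FPKM. Of 7 class II genes 5 were tested and none passed, all 5 differences were positive, and the median was 2.22 (lowest limma adjusted p = 0.978).

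The macrophage gene Lyz2, chosen after its values were seen, had 71.1, 302 and 251 FPKM in Run, against 23.6, 189 and 89.5 in NR, and was lowest in NR replicate 1 as well. Ptprc, the leukocyte surface marker CD45, exceeded FPKM 1 in Run replicate 2 (4.22) and NR replicate 2 (1.69). Which cells gave the class II transcripts was not tested.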
